A study of Mus musculus with 12 samples.

Results

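Transcripts of 43 genes of the intestinal epithelium were followed across libraries of sorted intraepithelial lymphocytes (IEL), as a measure of epithelial RNA carried along with the T cells. The genes were given as a list of enterocyte, goblet cell and Paneth cell transcripts. All 43 were found by symbol among 25899 symbols of the count table, and 35 passed the filter on low counts that left 12622 genes for testing. The 8 that did not pass were Mep1a, Lyz1, Agr2, Spink4, Tspan8, Cdx1, Cdx2 and Olfm4, and their values are given below without a fold test except where read numbers allow a bound.

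IEL lie between the epithelial cells of the gut, so their isolation starts from a suspension that also holds epithelium. Enterocytes absorb lipid, sugars and peptides through a brush border, goblet cells secrete mucus, and Paneth cells at the crypt base secrete lysozyme and defensins. The Reg family of lectins is made by enterocytes and Paneth cells and rises with microbial contact and with interleukin-22. Apolipoproteins, brush border hydrolases and gel-forming mucins are not known as T cell products, while some surface and keratin genes are expressed more widely.

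The libraries came from the small intestine of Rag2-/- mice, hosts without T or B cells of their own, that received wild-type T cells from lymph nodes of Themis WT donors by intravenous injection, with tissue taken a week later. Where conventional CD4+ T cells had been transferred, the sorts were the TCRβ CD4+ fraction, here called CD4 IEL, and the TCRβ CD8αα+ fraction, called CD8αα from CD4. Where CD8αβ+ T cells had been transferred, the sorts were TCRβ CD8αβ+ (CD8αβ IEL) and TCRβ CD8αα+ (CD8αα from CD8αβ). Each group had 3 libraries. The labels do not tie them to different mice, so each p-value reflects no more than the scatter among these 12 samples, which may be technical. All groups share the Rag2-/- host, so none shows the epithelium of a mouse with its own lymphocytes.

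Library totals ran from 5620257 to 11070734 counts, and 3 counts, the limit that a count of 0 allows, were 0.271 to 0.534 CPM, the unit of counts relative to the library total used below. In 4 of the 6 CD8αα libraries (CD8αα from CD4 replicates 1 and 2, and CD8αα from CD8αβ replicates 1 and 3) Xist stood at 373 to 645 CPM and 4 Y-linked transcripts together at 0.342 to 1.03 CPM. In the other 8 libraries the Y-linked transcripts stood at 234 to 449 CPM and Xist at 36.4 CPM or below. The labels give no sex, and some but not all results that rest on the 4 libraries are also given without them. The T cell list (Cd3e, Ptprc and others) summed to between 8325 and 10804 CPM in every library, against 89.4 to 1455 CPM for the 43 epithelial genes.

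The summed level of the 43 genes was 258, 253 and 89.4 CPM in CD4 IEL replicates 1 to 3 and 472, 530 and 372 CPM in CD8αα from CD4. It was 316, 1455 and 489 CPM in CD8αβ IEL and 239, 1155 and 471 CPM in CD8αα from CD8αβ. The replicate 2 libraries of both CD8αβ-derived groups were the highest of the 12, and CD4 IEL replicate 3 was the lowest. All CD4 IEL libraries lay below all libraries of CD8αα from CD4 and of CD8αβ IEL, and the other pairs of groups overlapped. The 43 genes took from 0.00936% of all reads in CD4 IEL replicate 3 (597 reads) to 0.146% in CD8αβ IEL replicate 2 (13775 reads). Intervals given below cover counting error only. In these bulk libraries fewer epithelial cells and less epithelial RNA per cell cannot be told apart.

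**Figure D1:**
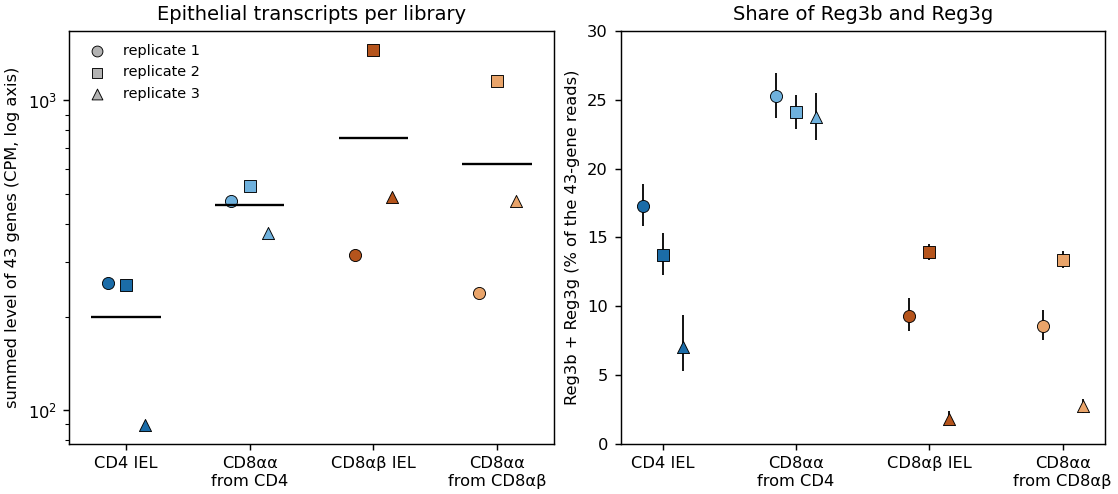
Left, the summed level of the 43 epithelial genes in each library (CPM, log axis), by group, with the group mean as a line. Right, Reg3b and Reg3g reads as a percentage of the reads of the 43 genes, with Wilson 95% intervals. The replicate 2 libraries of both CD8αβ-derived groups stand highest on the left, and the 3 libraries of CD8αα from CD4 stand at 23.8 to 25.3% on the right.

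The groups were compared with edgeR's quasi-likelihood test, and genes were called at adjusted p under 0.05 over all genes tested. CD8αα from CD4 against CD4 IEL asks what differs when CD4 T cells take the CD8αα phenotype. There, 33 of the 35 tested genes had a positive log2 fold change (median 1.03, against 0.02 over all genes), but only Zg16 was called, and it was higher. Of all genes tested, 15.0% were called higher in this comparison and 28.5% in either direction, so 1 of 35 lies below the background. The median was 0.62 without CD4 IEL replicate 3, with 8 of 37 tested genes negative. It was 0.61 with the CD8αα libraries cut to those with Y-linked transcripts, with 9 of 40 negative. No epithelial gene was called lower, and 6 of the 35 had an unadjusted p under 0.05. In 15 of the 35 every CD8αα from CD4 library lay above every CD4 IEL library, against 24.3% of all genes. When only the 6 libraries of this comparison entered the fit, 7 of 27 tested genes were called higher (Apoa1, Apoa4, Cldn7, Reg3b, Reg3g, Tff3 and Zg16).

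CD8αα from CD8αβ against CD8αβ IEL gave the opposite sign for most genes, with 9 of 35 positive and a median of −0.41. Krt18 and Lgals4 were called higher and none lower by edgeR, where 31.2% of all genes were called (16.1% higher and 15.1% lower). These 2 groups have same-numbered libraries that deviate together, although the labels do not state a pairing. In numbers 1 and 3 the CD8αβ IEL library carried Y-linked transcripts (374 and 357 CPM). The CD8αα library of the same number carried Xist instead (383 and 373 CPM), so the libraries of these pairs differ in such transcripts. A fit of the 6 libraries of these 2 groups with the replicate number as a block was chosen after these deviations were seen. The high epithelial sums of both replicate 2 libraries (1455 and 1155 CPM) are part of what the block takes out, so its calls are a description. In it, Krt18 and Lgals4 were again higher. Alpi (log2 fold change −0.77, SE 0.21, edgeR adjusted p = 0.0265) and Vil1 (−0.95, SE 0.29, edgeR adjusted p = 0.0432) were then lower. The sign of the median rested on single libraries. Without CD8αβ IEL replicate 2 the median over the epithelial genes changed sign to 0.71, with 3 genes called higher (Dmbt1, Krt18 and Lgals4). Without CD8αα from CD8αβ replicate 2 it fell to −1.32, with Krt18 called higher and Fcgbp lower, and without CD8αα from CD8αβ replicate 1 it was 0.09. With the CD8αα libraries cut to those with Y-linked transcripts, 1 per CD8αα group, it was 0.62 and no gene was called, the lone library being assumed to vary like the other groups. Krt18 was also the only one of the 35 with every CD8αα from CD8αβ library above every CD8αβ IEL library, a pattern of 23.3% of all genes, and none had every library below, against 20.5%.

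CD4 IEL against CD8αβ IEL, the comparison of the 2 parental lineages in the gut, held most of the calls. All but 1 of the 35 genes, Krt18, had a negative log2 fold change (median −1.84, against 0.01 over all genes). Without CD8αβ IEL replicate 2 the median was −1.01 and 8 of 36 were positive. Lower in CD4 IEL by edgeR were 13: the lipid genes Fabp2, Apoa1, Apoa4 and Mttp, the brush border genes Alpi, 2210415F13Rik and Guca2b, the lectin Reg1, the goblet genes Zg16 and Tff3, the keratin Krt8, and the claudins Cldn7 and Cldn15. None was called higher. Of all genes, 16.0% were called lower, 12.9% higher and 29.0% in either direction. With scaling by library totals alone the median of all genes moved to 0.13, 12 epithelial genes were lower and 2 had a positive sign. In 12 of the 35 every CD4 IEL library lay below every CD8αβ IEL library, against 21.5% of all genes, and in none did every one lie above, against 20.1%. The number called fell to 5 without CD4 IEL replicate 3, the library lowest in epithelial RNA, and to 5 without CD8αβ IEL replicate 2, the highest, with Alpi, Apoa1, Fabp2, Reg1 and Zg16 called both times. It fell to 6 without CD4 IEL replicate 1, which are these 5 and Mttp. Those 5 were called lower in every alternative that gave them an adjusted p. Apoa4, Guca2b, 2210415F13Rik, Cldn7 and Cldn15 each lost the call without CD4 IEL replicate 1, CD4 IEL replicate 3 or CD8αβ IEL replicate 2, with edgeR adjusted p of 0.0509 to 0.134.

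CD8αα from CD4 against CD8αα from CD8αβ gave no call among the 35 genes by edgeR, where 4.33% of all genes were called (1.87% higher and 2.46% lower), and 4 had an unadjusted p under 0.05. DESeq2 called 1, Reg1. Only Reg1 and Lgals4 had every CD8αα from CD4 library below every CD8αα from CD8αβ library, as did 16.7% of all genes. The median log2 fold change was −0.53, and 0.40 without CD8αα from CD8αβ replicate 2. With only the CD8αα libraries that carried Y-linked transcripts it was −1.99, and 39 of 40 genes were negative. The difference between the CD8αα changes of the 2 lineages, tested as an interaction, was called for none of the 35 by edgeR, against 2.56% of all genes (1.20% higher and 1.35% lower). There, 3 had an unadjusted p under 0.05 and DESeq2 called 1, Zg16. The median of this difference was 1.59, against 0.20 with only the Y-linked CD8αα libraries and 0.50 without CD8αβ IEL replicate 2. When the 4 group means were tested jointly, 10 of 35 were called (Alpi, Fabp2, Guca2b, Reg1, Lgals4, Zg16, Apoa1, Apoa4, 2210415F13Rik and Krt18), against 52.2% of all genes. These comparisons share groups and are not independent of each other.

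**Figure D2:**
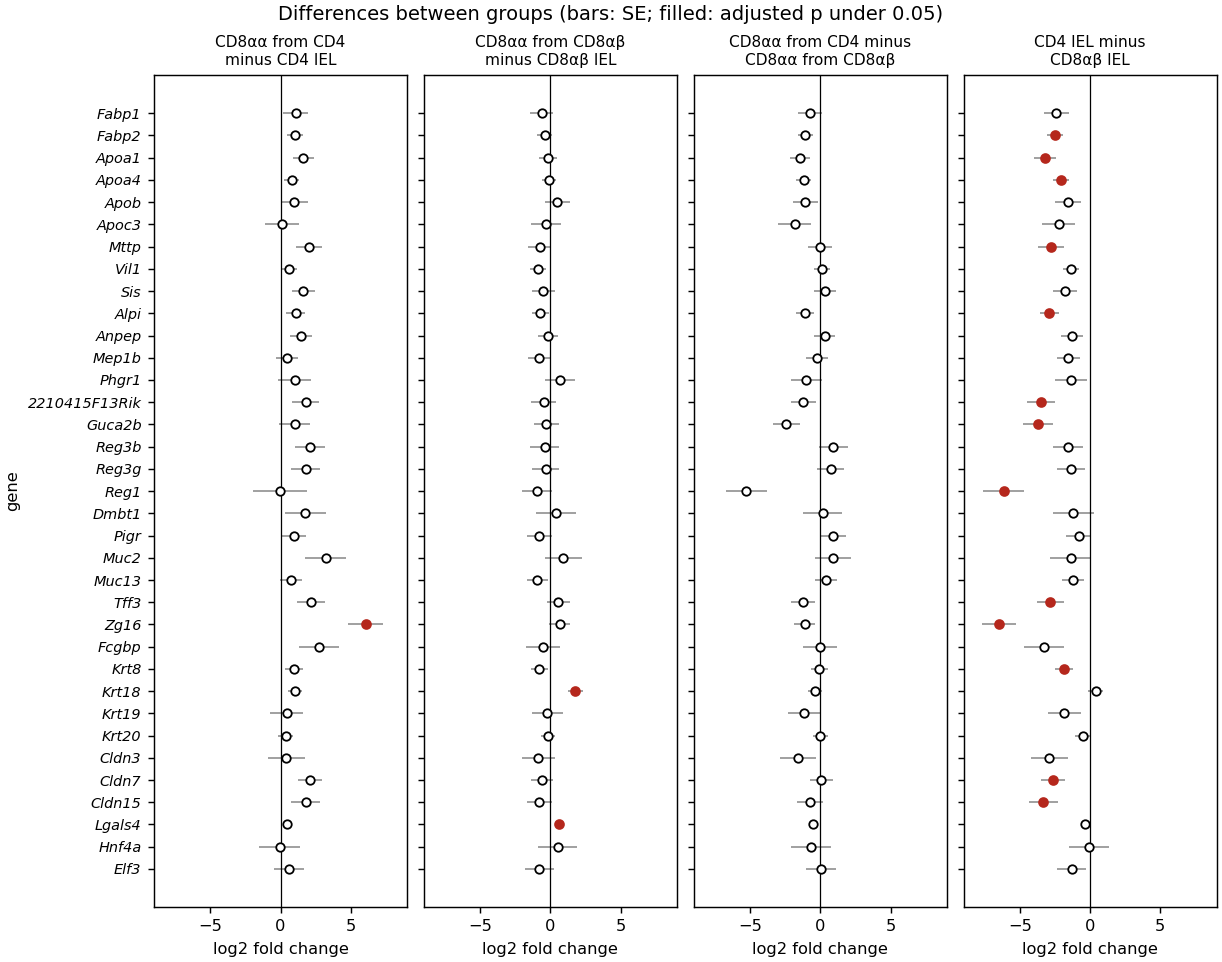
Log2 fold change with its SE (bars) of the 35 tested epithelial genes in the 4 comparisons, from edgeR. Filled points had an adjusted p under 0.05. There was 1 such gene in the first panel (Zg16), 2 in the second (Krt18, Lgals4), 0 in the third and 13, all negative, in the fourth.

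The lipid absorption genes were read in all groups and rose and fell with the sum. Apoa1, the main protein of high-density lipoprotein, stood at 12.6, 17.0 and 1.80 CPM in CD4 IEL and 34.5, 26.5 and 37.3 CPM in CD8αα from CD4. It stood at 37.6, 181 and 77.5 CPM in CD8αβ IEL and 24.7, 168 and 71.1 CPM in CD8αα from CD8αβ. Every CD4 IEL library lay below every library of the other groups, and in CD4 IEL against CD8αβ IEL the log2 fold change was −3.22 (SE 0.76, edgeR adjusted p = 0.00705). Fabp2, the intestinal fatty acid-binding protein, stood at 16.6, 15.9 and 3.29 CPM in CD4 IEL and 31.2, 22.3 and 20.6 CPM in CD8αα from CD4. It stood at 36.7, 118 and 50.1 CPM in CD8αβ IEL and 21.5, 83.9 and 48.8 CPM in CD8αα from CD8αβ. Its CD4 IEL libraries again lay below all others, at a log2 fold change of −2.5 (SE 0.59, edgeR adjusted p = 0.00706) against CD8αβ IEL.

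Apoa4, an apolipoprotein of chylomicrons, stood at 17.0, 20.7 and 13.2 CPM in CD4 IEL and 32.4, 32.3 and 23.3 CPM in CD8αα from CD4. It stood at 21.3, 119.8 and 71.5 CPM in CD8αβ IEL and 27.7, 122 and 50.1 CPM in CD8αα from CD8αβ. CD4 IEL was lower than CD8αβ IEL by 2.06 on the log2 scale (log2 fold change −2.06, SE 0.56, edgeR adjusted p = 0.015), with the highest CD4 IEL library just under the lowest CD8αβ IEL library. An antisense gene, Gm10680, overlaps Apoa4 and held 1770 reads over the 12 libraries. With the strand of the counting not stated, their reads cannot be told apart. Mttp, the transfer protein that loads lipid onto apolipoprotein B, stood at 4.14, 1.83 and 0.15 CPM in CD4 IEL and 7.0, 14.1 and 4.84 CPM in CD8αα from CD4. It stood at 2.63, 30.6 and 11 CPM in CD8αβ IEL and 4.30, 16.1 and 5.86 CPM in CD8αα from CD8αβ. The 2 IEL groups overlapped (log2 fold change −2.81, SE 0.92, edgeR adjusted p = 0.0353), and the call was lost in 5 of 18 alternatives, among them without CD4 IEL replicate 2 (edgeR adjusted p = 0.1), CD4 IEL replicate 3 (0.0908) or CD8αβ IEL replicate 2 (0.202).

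Fabp1, the liver-type fatty acid-binding protein that enterocytes also make, stood at 11.9, 5.74 and 1.5 CPM in CD4 IEL and 14.0, 72.8 and 17.3 CPM in CD8αβ IEL. These libraries did not overlap, but the difference missed the threshold (log2 fold change −2.42, SE 0.89, edgeR adjusted p = 0.0556). Its CD8αα libraries stood at 18.6, 11 and 11.5 CPM from CD4 and 3.55, 51.5 and 12.9 CPM from CD8αβ, the last group holding both a low and a high library. Apob and Apoc3, further lipoprotein components, ranged from 0 to 16.7 and from 0 to 11 CPM, with no call. Lipid absorption genes took 21 to 27.9% of the reads of the 43 genes in the 6 CD4-derived libraries and 36.1 to 47.9% in the 6 CD8αβ-derived ones. The make-up of the epithelial reads therefore differed between the 2 host groups in this share. Their amount overlapped, at 89.4 to 530 CPM in the CD4-derived and 239 to 1455 CPM in the CD8αβ-derived libraries.

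Fabp2 and Guca2b each belong to 1 or more of the 3 closest pairs of genes described further on (Fabp2 with Apoa1 and with Anpep, Guca2b with Cldn7), and are shown as the members of those pairs with a motif match. Their partners Apoa1, Anpep and Cldn7 had no match in the same window. The 150 bases before both RefSeq transcript starts are printed 5′ to 3′ on the gene's strand, from RefSeq (GRCm38.p6). The Fabp2 region is chr3:122894922-122895071 on the plus strand. The Guca2b region is chr4:119658946-119659095 on the minus strand. Capitals mark matches to the searched motifs, CAAAGT (bound by HNF4) in Fabp2, read on the other strand, and GTTAAT (bound by HNF1) in Guca2b.
Fabp2: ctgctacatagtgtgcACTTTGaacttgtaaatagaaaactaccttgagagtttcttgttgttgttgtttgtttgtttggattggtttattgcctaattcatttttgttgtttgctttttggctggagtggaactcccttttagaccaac
Guca2b: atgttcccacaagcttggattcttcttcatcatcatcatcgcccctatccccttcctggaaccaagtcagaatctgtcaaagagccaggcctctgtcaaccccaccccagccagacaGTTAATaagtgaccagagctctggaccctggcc

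In the 250 bases before the start, CAAAGT on either strand was found in 6 of the 34 epithelial genes with a RefSeq entry (17.6%) and in 12.5% of 27025 promoters. GTTAAT was found in 5 of them (14.7%) and in 6.52% of all promoters. TTTATG, bound by CDX factors, was found in 6 of them (17.6%) and in 11.1% of all promoters. The last motif searched, TGATAA, bound by GATA factors, was found in 5 of them (14.7%) and in 8.16% of all promoters. A match is only a match of letters, and overlaps between motifs were not removed.

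Among brush border and digestion genes, Alpi showed the steadiest call. Alpi encodes intestinal alkaline phosphatase, and stood at 3.49, 3.0 and 5.09 CPM in CD4 IEL and 8.88, 11.8 and 3.59 CPM in CD8αα from CD4. It stood at 16.9, 55.2 and 14.2 CPM in CD8αβ IEL and 9.16, 34.3 and 8.62 CPM in CD8αα from CD8αβ. The CD4 IEL libraries lay below all libraries of both CD8αβ-derived groups, at a log2 fold change of −2.91 (SE 0.67, edgeR adjusted p = 0.00638) against CD8αβ IEL. Unlike most of the list, Alpi was not lowest in CD4 IEL replicate 3.

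2210415F13Rik stood at 9.60, 10.3 and 1.2 CPM in CD4 IEL and 22.2, 43.2 and 8.74 CPM in CD8αα from CD4. It stood at 15.9, 174 and 51.5 CPM in CD8αβ IEL and 9.44, 114 and 49.3 CPM in CD8αα from CD8αβ. CD4 IEL lay below CD8αβ IEL in every library (log2 fold change −3.49, SE 1.0, edgeR adjusted p = 0.0191). Guca2b, which encodes uroguanylin, a peptide that regulates fluid secretion, stood at 0.545, 1.04 and 0 CPM in CD4 IEL and 0.683, 1.49 and 1.09 CPM in CD8αα from CD4. It stood at 1.80, 13.4 and 6.42 CPM in CD8αβ IEL and 1.03, 12 and 4.83 CPM in CD8αα from CD8αβ. The 2 CD4-derived groups were both low, and CD4 IEL lay below CD8αβ IEL (log2 fold change −3.71, SE 1.06, edgeR adjusted p = 0.0187).

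Anpep, an aminopeptidase, stood at 10.2, 8.35 and 0.749 CPM in CD4 IEL and 19.1, 18.6 and 15.8 CPM in CD8αα from CD4. It stood at 9.15, 25.7 and 13.2 CPM in CD8αβ IEL and 3.27, 30.5 and 9.08 CPM in CD8αα from CD8αβ. CD8αα from CD4 was above CD4 IEL in every library, without a call (log2 fold change 1.45, SE 0.77, edgeR adjusted p = 0.185). The other tested genes of this role were the villus actin bundler Vil1, the disaccharidase Sis, the protease subunit Mep1b and Phgr1. They ranged from 0 to 37.2 CPM and were not called with all 12 libraries and no block. Without CD8αβ IEL replicate 1, Sis and Vil1 were called lower in CD4 IEL than in CD8αβ IEL. Vil1 is overlapped by the antisense gene Usp37, which held 10627 reads. Mep1a, the other meprin subunit, had 17 reads, all in CD8αβ IEL replicates 2 and 3, so at least 7.17-fold more than in CD8αα from CD8αβ against 3 reads over that group.

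Of the antimicrobial genes, the C-type lectins Reg3b and Reg3g are secreted against bacteria and lie on chromosome 6 with Reg1. Their upstream regions are shown because the pair of Reg3 genes took a share of the epithelial reads unlike that of Reg1. Each sequence is the 150 bases before the RefSeq start (GRCm38.p6), at chr6:78370735-78370884 on the plus strand for Reg3b, chr6:78468875-78469024 on the minus strand for Reg3g and chr6:78425833-78425982 on the plus strand for Reg1. Capitals mark the run of 20 bases up to the start that Reg3b and Reg3g share, and in Reg1 the 7 bases of it that all 3 share.
Reg3b: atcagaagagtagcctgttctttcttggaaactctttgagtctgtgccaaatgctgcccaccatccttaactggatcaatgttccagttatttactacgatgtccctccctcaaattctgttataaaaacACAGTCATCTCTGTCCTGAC
Reg3g: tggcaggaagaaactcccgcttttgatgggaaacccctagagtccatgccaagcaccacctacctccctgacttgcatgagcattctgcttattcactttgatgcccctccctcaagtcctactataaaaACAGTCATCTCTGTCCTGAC
Reg1: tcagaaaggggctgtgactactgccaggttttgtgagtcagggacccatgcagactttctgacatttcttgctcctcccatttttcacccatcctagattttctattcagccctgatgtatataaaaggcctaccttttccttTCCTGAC

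Aligned over this window, Reg3b and Reg3g had 107 identical bases and 39 mismatches, an identity of 73.3% of aligned pairs, with 8 gap bases. Reads that fit more than 1 of such related genes could have been split or dropped, since the counting is not described.

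Reg3b stood at 23.8, 19.1 and 1.65 CPM in CD4 IEL and 68.1, 75.1 and 48.5 CPM in CD8αα from CD4. It stood at 19.3, 111 and 3.29 CPM in CD8αβ IEL and 13.5, 81.5 and 6.67 CPM in CD8αα from CD8αβ. CD8αα from CD4 was high in each library and above all CD4 IEL libraries, but the log2 fold change of 2.09 (SE 1.08) had an edgeR adjusted p of 0.171. In the fit of these 6 libraries alone it was called (2.06, edgeR adjusted p = 0.0142).

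Reg3g stood at 20.8, 15.7 and 4.64 CPM in CD4 IEL and 51.1, 52.8 and 39.8 CPM in CD8αα from CD4. It stood at 10.1, 91.4 and 5.60 CPM in CD8αβ IEL and 7.01, 72.9 and 6.09 CPM in CD8αα from CD8αβ. It followed Reg3b library by library. Together the 2 genes took 25.3, 24.1 and 23.8% of the reads of the 43 genes in CD8αα from CD4, against 17.3, 13.7 and 7.04% in CD4 IEL. In CD8αβ IEL they took 9.31, 13.9 and 1.82%, and in CD8αα from CD8αβ 8.57, 13.4 and 2.71%. All CD8αα from CD4 libraries were above all others in this share. Among the CD8αβ-derived libraries, the intervals of same-numbered libraries overlapped for each number (8.18 to 10.6% with 7.54 to 9.72%, 13.3 to 14.5% with 12.7 to 14.0%, and 1.4 to 2.36% with 2.25 to 3.25%), while libraries of different number did not.

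Reg1 differed from the Reg3 pair by being nearly missing from both CD4-derived groups. It stood at 0.545, 0.130 and 0 CPM in CD4 IEL and 0.171, 0.229 and 0.312 CPM in CD8αα from CD4. It stood at 7.62, 48.0 and 0.329 CPM in CD8αβ IEL and 4.95, 21.3 and 2.87 CPM in CD8αα from CD8αβ. CD4 IEL was lower than CD8αβ IEL (log2 fold change −6.16, SE 1.46, edgeR adjusted p = 0.00736), although CD8αβ IEL replicate 3 was as low as the CD4-derived libraries. Between the CD8αα groups, which did not overlap, the log2 fold change was −5.26 (SE 1.48, edgeR adjusted p = 0.065), below the threshold in 6 of 18 alternatives. The CD4-derived values are near those of single reads, so the size of either fold is loosely set.

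Pigr, the receptor that carries IgA across the epithelium, ranged from 0.749 to 37.3 CPM, and Dmbt1, a mucosal scavenger protein, from 0 to 8.35 CPM, with no call for either. Lyz1, the lysozyme of Paneth cells, had 15 reads in all, 12 in CD8αβ IEL replicate 1 and 3 in CD8αα from CD8αβ replicate 2. Of 17 Paneth cell and crypt base genes in the table, Lyz1 included, 10 had no read in any library, among them the defensins Defa17, Defa21, Defa22, Defa3, Defa5 and Defa26. Defining Paneth cell transcripts were at or near 0. The Paneth cell and crypt base list together summed to 12.4 to 18.0 CPM in CD4 IEL and 1.68 to 7.41 CPM in the other groups. The higher list sum of CD4 IEL, on average 14.8 CPM, rested on Axin2 (mean 10.6 CPM) and Smoc2 (mean 4.18 CPM). Lyz1 and the listed defensins had no read in CD4 IEL. Axin2 was the 1 tested gene of the list. Its deviations from the group means correlated with those of the epithelial sum at r of 0.08. Axin2 was called lower in both CD8αα comparisons (log2 fold changes −1.48 and −1.38), as were 13.5% and 15.1% of all genes. Lyz2, the lysozyme of macrophages, averaged 12.9 ± 8.93 CPM (SD, n = 3) in CD4 IEL and 0.808 ± 0.752 CPM (SD, n = 3) in CD8αα from CD8αβ.

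Il22, which encodes the cytokine that induces Reg3 genes in epithelium, averaged 213 ± 88.8 CPM (SD, n = 3) over CD4 IEL. The average was 2.05 ± 1.91 CPM (SD, n = 3) over CD8αβ IEL, and it was 0.0382 CPM over CD8αα from CD4 and 0.0312 CPM over CD8αα from CD8αβ. CD4 IEL and CD8αα from CD4 both come from hosts given CD4 T cells. Of the 16 genes listed as IL-22 responsive, 3 were tested (Reg3b, Reg3g and Muc1), none was called with all 12 libraries in the fit and no block, and 6, with Saa1 and Lcn2 among them, had no read. Its part in the Reg3 levels was not tested.

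Among goblet cell and mucus genes, Zg16, a mucus lectin that binds bacteria, was the only one called between CD8αα from CD4 and CD4 IEL with all 12 libraries in the fit. Tff3 was also called when these 6 libraries alone were fitted. Zg16 stood at 0.109, 0 and 0 CPM in CD4 IEL and 7.34, 2.29 and 1.87 CPM in CD8αα from CD4. It stood at 3.33, 6.34 and 6.09 CPM in CD8αβ IEL and 2.06, 18.2 and 4.60 CPM in CD8αα from CD8αβ. CD4 IEL held a single read against 75 in CD8αα from CD4, a ratio of 84.0 (95% counting interval 14.6 to 3362), and against 121 in CD8αβ IEL, a ratio of 125 (22 to 4979). The edgeR adjusted p was 0.00225 for the first and 0.00183 for the second, and both calls held in all 18 alternatives run. The first had a log2 fold change of 5.03 (edgeR adjusted p = 0.0193) with only the CD8αα libraries that carried Y-linked transcripts. The interaction did not reach the threshold (edgeR adjusted p = 0.0771).

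Muc2, the gel-forming mucin of goblet cells, stood at 0.218, 0.783 and 0 CPM in CD4 IEL and 5.98, 1.49 and 2.34 CPM in CD8αα from CD4. It stood at 0.832, 0.634 and 1.32 CPM in CD8αβ IEL and 0, 5.0 and 0.230 CPM in CD8αα from CD8αβ. The CD4-derived groups did not overlap, with a log2 fold change of 3.21 (SE 1.44, edgeR adjusted p = 0.117). In contrast to the enterocyte genes, Muc2 was low in CD8αβ IEL replicate 2, the library with the highest epithelial sum.

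Fcgbp, another mucus protein, stood at 0.109, 0.522 and 0.749 CPM in CD4 IEL and 6.15, 0.687 and 2.5 CPM in CD8αα from CD4. It stood at 2.36, 6.87 and 4.28 CPM in CD8αβ IEL and 0, 8.93 and 0.575 CPM in CD8αα from CD8αβ. CD4 IEL lay below CD8αβ IEL without a call (log2 fold change −3.30, SE 1.41, edgeR adjusted p = 0.0934). It was called lower there in 5 alternatives, which were DESeq2, only the groups compared, the Y-linked CD8αα libraries only, and without CD8αα from CD8αβ replicate 1 or replicate 2. Tff3, the trefoil peptide of goblet cells, stood at 0.109, 0.652 and 0.899 CPM in CD4 IEL and 2.90, 1.95 and 2.5 CPM in CD8αα from CD4. It stood at 1.52, 8.56 and 1.48 CPM in CD8αβ IEL and 1.22, 10.2 and 5.98 CPM in CD8αα from CD8αβ. CD4 IEL lay below every library of the other groups and was lower than CD8αβ IEL (log2 fold change −2.83, SE 0.97, edgeR adjusted p = 0.0424), a call lost in 10 of 18 alternatives, with edgeR adjusted p of 0.0128 to 0.304 over all of them and the highest without CD8αβ IEL replicate 2. It was lost without any single CD4 IEL or CD8αα from CD4 library as well.

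Muc13, a membrane mucin of both enterocytes and goblet cells, behaved like the enterocyte genes. It stood at 11.4, 10.2 and 1.65 CPM in CD4 IEL and 12.5, 19.4 and 7.02 CPM in CD8αα from CD4. It stood at 9.84, 33.5 and 12 CPM in CD8αβ IEL and 1.96, 20.2 and 7.01 CPM in CD8αα from CD8αβ, and all groups overlapped. Agr2, which helps mucins fold, had 68 reads in CD8αα from CD8αβ, at 0, 1.91 and 5.75 CPM. It had none in CD8αα from CD4, at least 16.5-fold fewer against 3 reads over that group. Spink4, a goblet cell protease inhibitor, did not exceed 0.951 CPM in any library.

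The keratins split. Krt8, the type II keratin of simple epithelia, stood at 9.92, 9.0 and 2.70 CPM in CD4 IEL and 9.73, 22.6 and 10.5 CPM in CD8αα from CD4. It stood at 8.87, 46.9 and 22.1 CPM in CD8αβ IEL and 6.92, 24.6 and 13.7 CPM in CD8αα from CD8αβ. It followed the epithelial sum, and was lower in CD4 IEL than in CD8αβ IEL (log2 fold change −1.84, SE 0.63, edgeR adjusted p = 0.0433), a call lost in 11 of 18 alternatives, with the highest edgeR adjusted p, 0.234, without CD8αβ IEL replicate 2.

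Krt18, the type I partner with which Krt8 forms filaments, did not follow it. Krt18 stood at 2.18, 2.87 and 9.44 CPM in CD4 IEL and 12.1, 10.8 and 6.55 CPM in CD8αα from CD4. It stood at 3.47, 5.39 and 1.98 CPM in CD8αβ IEL and 13.3, 12.9 and 11.7 CPM in CD8αα from CD8αβ. Its 3 CD8αα from CD8αβ libraries lay close together while their epithelial sums ranged from 239 to 1155 CPM, and they were all above CD8αβ IEL (log2 fold change 1.78, SE 0.53, edgeR adjusted p = 0.0206). That difference had an edgeR adjusted p of 0.0521 without CD8αβ IEL replicate 1, 0.083 without replicate 3 and 0.0517 without CD8αα from CD8αβ replicate 1. With only the Y-linked CD8αα library of each group it was 1.82 (edgeR adjusted p = 0.239). Krt18 was highest among CD4 IEL in replicate 3, the library with the fewest epithelial reads, where it made 10.6% of them. Without that library it was also called higher in CD8αα from CD4 than in CD4 IEL.

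Krt20, a keratin of villus tip cells, stood at 20.6, 22.3 and 7.19 CPM in CD4 IEL and 14.5, 31.7 and 17.8 CPM in CD8αα from CD4. It stood at 19.1, 38.1 and 15.1 CPM in CD8αβ IEL and 12.5, 38.7 and 13.1 CPM in CD8αα from CD8αβ, and no difference was called. Krt19 ranged from 0 to 11.9 CPM with no call.

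**Figure D3:**
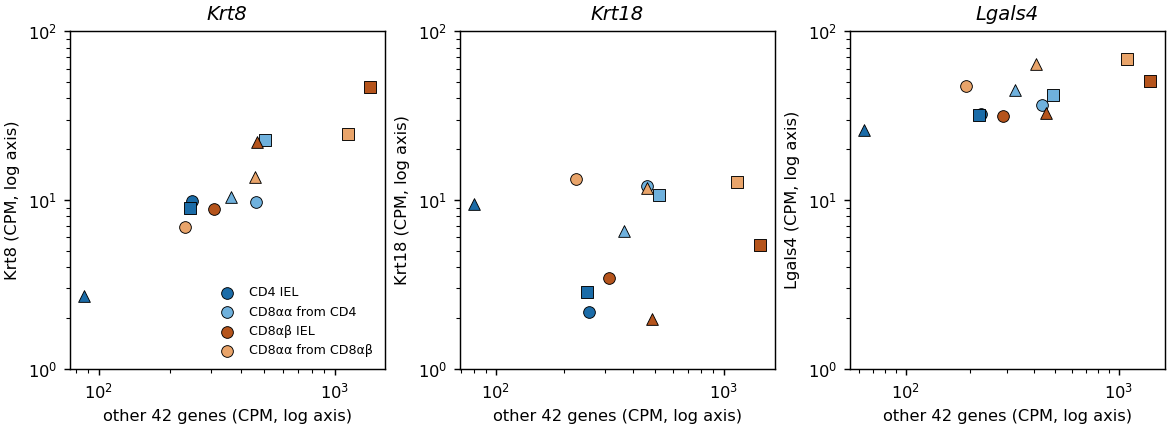
Krt8, Krt18 and Lgals4 in each library (CPM, log axis) against the summed level of the other 42 epithelial genes (CPM, log axis), coloured by group, with the replicate number as circle (1), square (2) or triangle (3). Krt8 climbs with the sum, Krt18 has no such course, and Lgals4 climbs over a narrow range of 25.9 to 68.2 CPM.

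Among junction and surface genes, Lgals4 (galectin-4, a lectin of the gut epithelium) varied least between libraries. It stood at 32.5, 31.8 and 25.9 CPM in CD4 IEL and 36.7, 42.1 and 45.1 CPM in CD8αα from CD4. It stood at 31.5, 51.0 and 32.9 CPM in CD8αβ IEL and 47.4, 68.2 and 63.5 CPM in CD8αα from CD8αβ. It was higher in CD8αα from CD8αβ than in CD8αβ IEL (log2 fold change 0.63, SE 0.21, edgeR adjusted p = 0.0374), although replicate 1 of the first lay below replicate 2 of the second. With only the Y-linked CD8αα library of each group the log2 fold change was 0.83. The call was lost in 11 of 19 alternatives, with edgeR adjusted p of 0.128 without CD8αβ IEL replicate 1, 0.177 without its replicate 3, 0.128 without CD8αα from CD8αβ replicate 2 and 0.108 without its replicate 3. Its log2 level deviated from the group means by an SD of 0.26, against 1.81 for Reg3b. Lgals4 therefore made 29.0% of the epithelial reads in CD4 IEL replicate 3 and 3.51% in CD8αβ IEL replicate 2.

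Cldn7, a claudin of tight and lateral junctions, stood at 1.2, 1.96 and 0.300 CPM in CD4 IEL and 3.24, 7.10 and 4.84 CPM in CD8αα from CD4. It stood at 2.5, 12.3 and 7.41 CPM in CD8αβ IEL and 0.841, 10.2 and 3.56 CPM in CD8αα from CD8αβ. CD4 IEL lay below both CD8αα from CD4 (log2 fold change of the latter 2.11, SE 0.88, edgeR adjusted p = 0.0894) and CD8αβ IEL (−2.65, SE 0.88, edgeR adjusted p = 0.0369). Cldn15, a claudin that passes cations, stood at 0, 0.652 and 0.449 CPM in CD4 IEL and 0.683, 1.72 and 1.4 CPM in CD8αα from CD4. It stood at 2.08, 5.81 and 3.29 CPM in CD8αβ IEL and 1.12, 4.46 and 0.804 CPM in CD8αα from CD8αβ. CD4 IEL was lower than CD8αβ IEL (log2 fold change −3.34, SE 1.03, edgeR adjusted p = 0.0273). Cldn3 ranged from 0 to 11.5 CPM with no call, and the tetraspanin Tspan8 did not exceed 1.59 CPM.

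The transcription factors of the epithelium were low throughout. Elf3, an epithelial Ets factor, stood at 2.18, 4.05 and 0.300 CPM in CD4 IEL and 4.95, 2.75 and 2.18 CPM in CD8αα from CD4. It stood at 0.277, 13.6 and 2.47 CPM in CD8αβ IEL and 1.68, 6.17 and 1.72 CPM in CD8αα from CD8αβ. All groups overlapped for Elf3.

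Hnf4a, a nuclear receptor of enterocytes, stood at 0.654, 3.0 and 0 CPM in CD4 IEL and 1.54, 1.49 and 0.468 CPM in CD8αα from CD4. It stood at 1.11, 2.64 and 0 CPM in CD8αβ IEL and 0, 3.83 and 1.72 CPM in CD8αα from CD8αβ. Its groups overlapped as well, and several values are near the limit of a single count. Cdx2, the homeobox factor of intestinal identity, stood at 1.2, 0.652 and 0 CPM in CD4 IEL and 0.171, 0.573 and 0 CPM in CD8αα from CD4. It stood at 1.25, 1.06 and 1.15 CPM in CD8αβ IEL and 0.187, 1.70 and 0.575 CPM in CD8αα from CD8αβ. Cdx1 did not exceed 1.80 CPM, and the crypt stem cell marker Olfm4 had 12 reads, all in CD8αβ IEL replicate 2.

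**Figure D4:**
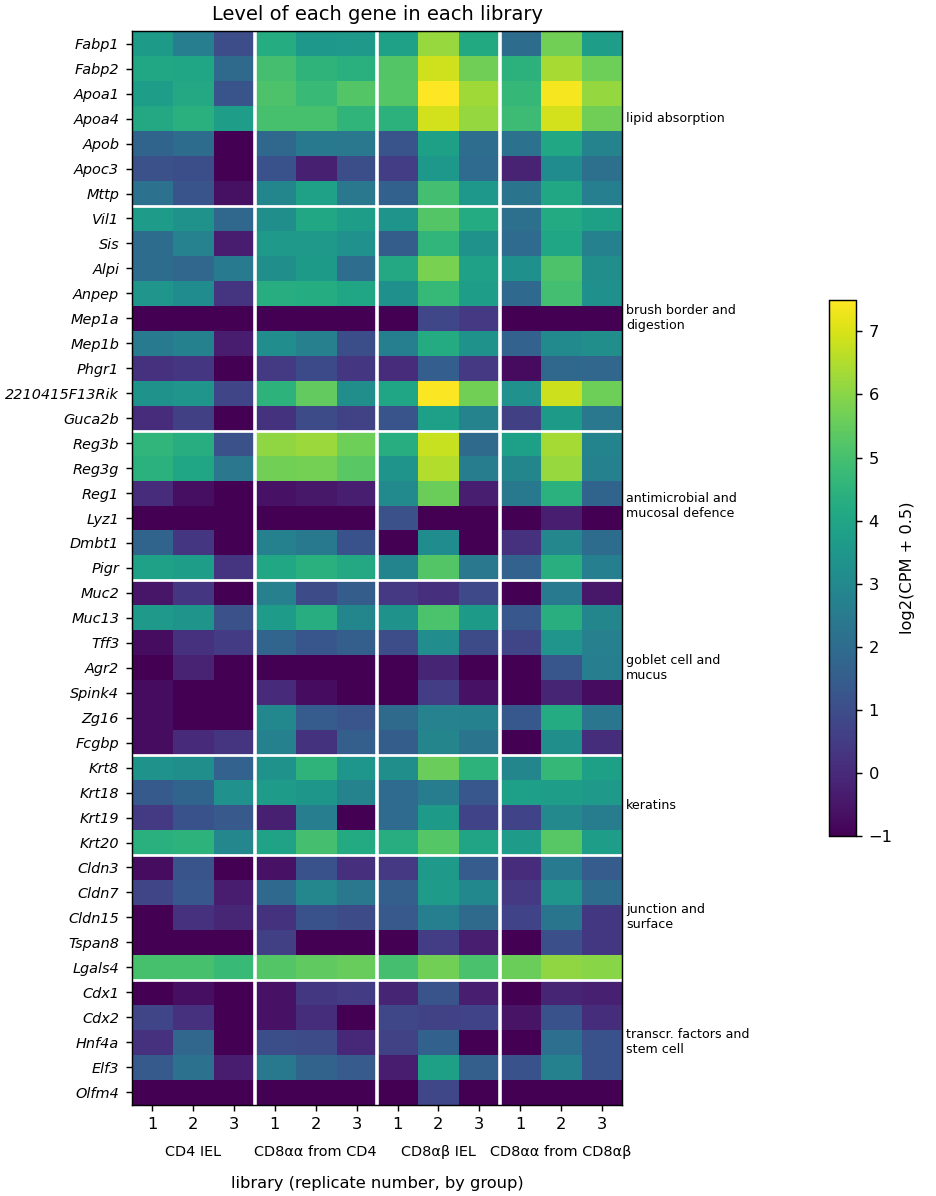
Level of each of the 43 epithelial genes, by role, in each library as log2(CPM + 0.5), where −1 marks no read. Columns are replicates 1 to 3 of each group. Most rows are brightest in replicate 2 of both CD8αβ-derived groups and darkest in CD4 IEL replicate 3, while Lgals4 is even, Krt18 is as bright in low as in high libraries, and Reg1 is dark in the CD4-derived groups.

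To ask which genes rose and fell together apart from the group means, the deviation of log2(CPM + 0.5) from the group mean was correlated over the 12 libraries for 36 genes with at least 1 CPM in at least 3 libraries. The points share library depth and dissociation of the same tissue, so these values are a description. Of 630 pairs, 606 had a positive Pearson r, with a median of 0.69. All 24 negative pairs held Krt18. The median was 0.51 without the replicate 2 libraries of the CD8αβ-derived groups, which lie farthest from the median sum.

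The closest pair was Guca2b with Cldn7 (r = 0.99, Spearman rho 0.99, exact permutation of libraries within groups p = 0.000772, the smallest the 1296 arrangements allow). Fabp2 with Apoa1 (r = 0.97, rho 0.92, exact permutation p = 0.00617) and Fabp2 with Anpep (r = 0.96, rho 0.94, exact permutation p = 0.000772) came next. Without the 2 farthest libraries these 3 pairs had r of 0.99, 0.95 and 0.98. These are raw p-values of pairs picked as the highest of 630. The arrangements permute each group on its own and take no account of same-numbered CD8αβ-derived libraries that deviate together. The labels state no such pairing, and the p-values are a description too. The lowest pairs were Krt18 with Anpep (r = −0.46, rho −0.29, exact permutation p = 0.328), with Cdx2 (−0.44, rho −0.38, exact permutation p = 0.32) and with Apoa1 (−0.42, rho −0.36, exact permutation p = 0.36). Without the 2 farthest libraries these were −0.84, −0.58 and −0.86.

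Within roles, the lipid absorption genes had a median r of 0.84 over 21 pairs. Their lowest r, 0.74, was the highest minimum of any role. The antimicrobial genes had a median of 0.86 over 10 pairs with a lowest r of 0.68. Brush border genes had a median of 0.84 over 28 pairs with a lowest r of 0.32. Across different roles the median was 0.68 over 546 pairs. Reg3b, Reg3g and Reg1 moved together (r = 0.94 for the Reg3 pair, 0.88 for Reg3b with Reg1 and 0.87 for Reg3g with Reg1), and without the 2 farthest libraries these r were 0.97, 0.70 and 0.56. The goblet genes Muc2, Zg16 and Fcgbp gave r of 0.85 to 0.89 with each other (0.70 to 0.72 without those libraries), while Muc2 with Muc13 gave 0.58. Over all 10 pairs of goblet genes the median was 0.63 and the lowest r 0.43.

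Each gene was also set against the sum of the other genes. Muc13 (r = 0.95), Fabp1 (0.94), 2210415F13Rik (0.94), Fabp2 (0.94) and Krt8 (0.93) followed it most closely. The lowest were Krt18 (−0.17), Krt19 (0.51), Fcgbp (0.55), Muc2 (0.55), Cldn15 (0.57) and Reg1 (0.59). For some genes the relation rested on the replicate 2 libraries of the CD8αβ-derived groups, since without them r fell to −0.20 for Reg1, −0.16 for Alpi, −0.17 for Cldn15, −0.05 for Fcgbp, 0.04 for Tff3 and 0.39 for Reg3b, and to −0.75 for Krt18. It was 0.96 for Muc13 and 0.95 for Fabp2. Against the sum of all 43, 26 of the 35 tested genes had r over 0.7, against 5.19% of all genes tested, the sum being made of these genes.

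**Figure D5:**
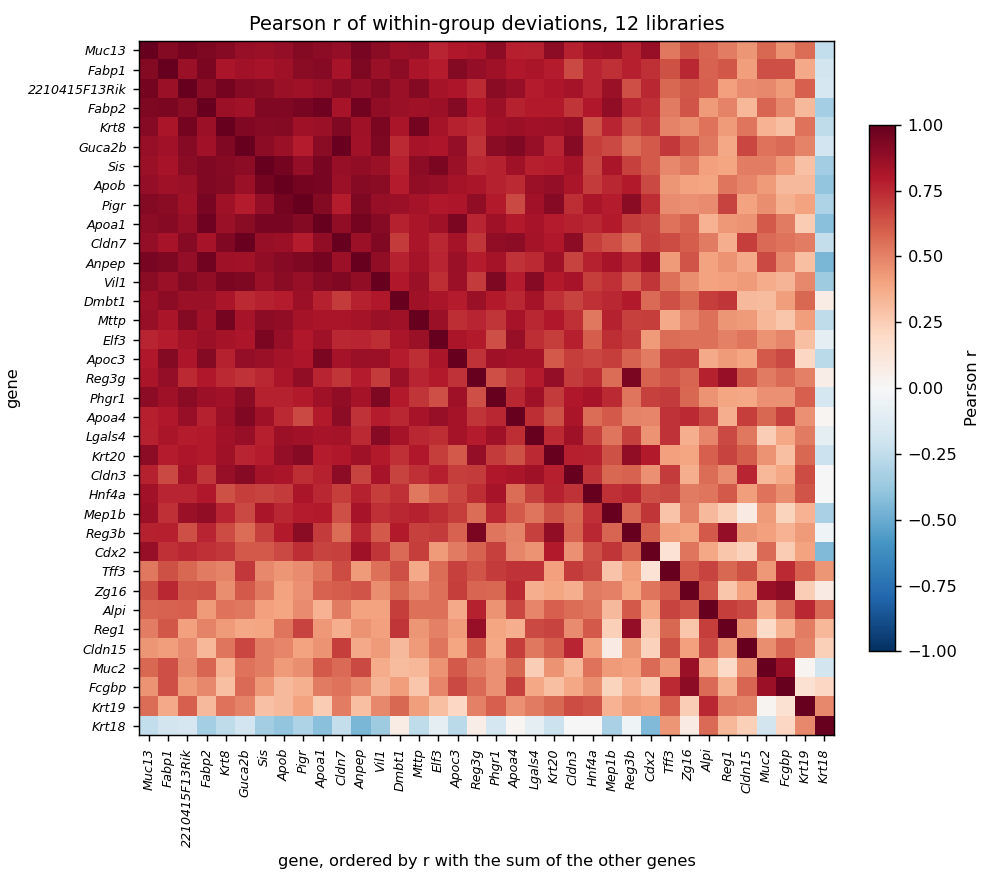
Pearson r between the within-group deviations of 36 epithelial genes over 12 libraries, with genes ordered by r with the sum of the others. A block of high values joins enterocyte genes of all roles, the lower right holds Tff3, Zg16, Alpi, Reg1, Cldn15, Muc2 and Fcgbp at lower values, and Krt18 in the last row and column holds all the negative values.

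Other genes of the table followed the epithelial sum as closely. Among the 10 tested genes with the highest r, over 12 libraries, were Mrps21 (0.96), Myeov2, Rbp2, Ifi27l2b, Prap1, Rpl37a, Ugt2b34, Muc3 and Cox7b (0.94). Rbp2, a retinol-binding protein of enterocytes, averaged 8.02 ± 4.53 CPM (SD, n = 3) over CD4 IEL and 35.3 ± 27.3 CPM (SD, n = 3) over CD8αβ IEL. Mrps21, Rpl37a and Cox7b encode ribosomal and respiratory proteins that all cells make.

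A further list of 47 intestinal epithelial genes gave 46 in the table and 41 tested, of which 30 had r over 0.7 with the sum. By edgeR, 5 rose and 2 fell in CD8αα from CD4 against CD4 IEL, 5 rose and 2 fell in CD8αα from CD8αβ against CD8αβ IEL, and 1 was higher and 8 lower in CD4 IEL against CD8αβ IEL. The background over all genes, in the same order, was 15.0% higher and 13.5% lower, 16.1% and 15.1%, and 12.9% and 16.0%. Epcam, the epithelial adhesion molecule, averaged 4.90 ± 2.80 CPM (SD, n = 3) for CD4 IEL against 100.4 ± 5.43 for CD8αα from CD4. For the CD8αβ-derived pair the averages were 34.2 ± 19.2 CPM (CD8αβ IEL) and 207 ± 24.3 CPM (CD8αα). Epcam rose in CD8αα cells of both lineages (log2 fold changes 4.32, edgeR adjusted p = 9.71e-06, and 2.59, edgeR adjusted p = 0.000228).

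The cadherins Cdh1 and Cdh17 and the junction protein Tjp3 rose in CD8αα cells of both lineages as well. Cdh1 averaged 76.6 ± 22.3 CPM (SD, n = 3) and 85.6 ± 21 CPM (SD, n = 3) in the CD4 and CD8αβ IEL, against 275 ± 36.8 and 277 ± 26.0 CPM in the CD8αα cells derived from each. Its r with the epithelial sum was 0.04, and that of Tjp3 was 0.09, against 0.71 for Cdh17 and 0.78 for Epcam. The whole list of 41 tested genes had median log2 fold changes of 0.79 and −0.38 in the CD8αα comparisons of the CD4 and CD8αβ lineage. Dpp4, a peptidase found on enterocytes and on T cells, was lower in both (−0.81, edgeR adjusted p = 0.0265, and −1.79, edgeR adjusted p = 0.000114).

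Markers of other cells were set beside the epithelial sum. Of the myeloid list, 18 of 19 genes were in the table and 14 tested, S100a8 and S100a9 were at 0, and the summed level ran from 208 to 389 CPM over CD4 IEL and from 1597 to 1767 CPM over CD8αα from CD4. For CD8αβ IEL it ran from 581 to 1262 CPM and for CD8αα from CD8αβ from 998 to 1227 CPM. Only 2 of its 14 tested genes had r over 0.7 with the epithelial sum. The class II genes Cd74, H2-Ab1 and H2-Aa, which both enterocytes and myeloid cells can express, had r of 0.71, 0.73 and 0.68. By edgeR, 4 of the 14 (Itgam, Itgax, Fcgr3 and H2-Aa) were higher and none lower in CD8αα from CD4 against CD4 IEL, with a median log2 fold change of −0.22. Itgax, Fcgr3 and Itgam, at means of 845, 293 and 241 CPM, made most of the sum in CD8αα from CD4, while Lyz2, Cd68, Csf1r, C1qa and C1qb had negative fold changes without a call. In CD8αα from CD8αβ against CD8αβ IEL 3 were higher and 10 lower (median −1.95). Over all genes tested, 15.0% were higher and 13.5% lower in the CD8αα comparison of the CD4 lineage. In that of the CD8αβ lineage the shares were 16.1% and 15.1%. Of the liver and pancreas list 8 of 13 genes, with Alb and Ttr among them, had no read, although liver too makes Apoa1, Apob and Fabp1. Of 10 B and plasma cell markers 6 were in the table, and Pax5 had no read in any library. No tested gene of the lists for B cells, for liver and pancreas, for mast and erythroid cells or for fibroblasts, endothelium and smooth muscle had r over 0.7 with the epithelial sum, and 1 of 6 tested enteroendocrine and tuft cell genes did. The part of other cell types in the epithelial levels was not tested.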

How the data were processed

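RNA of sorted IEL was sequenced in 12 libraries. The deposited table gives each gene's raw read count in whole numbers, as the authors left it, with no normalisation. Alignment was with HISAT2 2.1.0 to mm10, per the submitters' processing notes. How reads were counted, by strand and where they matched several places, is not given in the sources used here. Of 25965 rows, 66 that repeated a symbol were left out, with 0.0202% of the reads, and the constant regions of the T cell receptor were not analysed here.

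Genes were kept by filterByExpr (minimum count 10, minimum total 15) and scaled by TMM. All 12 libraries entered 1 edgeR 4.0.16 quasi-likelihood model with a mean per group, run in R 4.3.3. P-values are two-sided and were adjusted by Benjamini-Hochberg over the whole set of tested genes. The script was tested on simulated data. DESeq2 1.42.0, other scalings and filters, fewer samples and a replicate block were alternatives. Levels are CPM over the scaled total, the group values mean ± SD of 3 libraries. Correlations used numpy 2.4.6 and scipy 1.17.1.

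The members and lists were chosen with earlier results of these data known. Values in every library are given for the 2 genes per role with the highest mean CPM, for genes called in a comparison of groups or with a log2 fold change over 2 in size and no overlap, and for the 3 most and 3 least correlated pairs. Other genes come from the 10 most correlated with the sum and from the marker lists, and some of them are not reported here. Replicate numbers in the titles were taken as pairs only for CD8αβ IEL and CD8αα from CD8αβ, where the deviations of same-numbered libraries from their group means correlated at r of 0.22, 0.35 and 0.11, against −0.01, 0.05 and 0.06 for CD4 IEL and CD8αα from CD4. No pair of replicates agreed within sampling noise (chi-square per gene 11.4 to 60.2). RefSeq promoters (GRCm38.p6) were matched by symbol for 34 of 43 genes, with 9 having no entry.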

Additional observations from a re-analysis of the deposited data

How the results depend on the processing

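Single genes were followed in the comparisons where the fit of all 12 libraries without a block called them. Reg1 between the CD8αα groups, and Reg3b and Reg3g in CD8αα from CD4 against CD4 IEL, were added. None of these fold changes reversed sign with a call. Of their alternatives, 275 kept the side of the threshold, 58 lost a call and 9, all of Reg genes, gained one. Calls that other genes gained, such as Fcgbp and Cldn3, are not in these numbers. Of the alternatives for counts, sums and the median r, 294 stayed within their tolerance and 54 did not. The cause was not tested in any of these.

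For CD8αα from CD4 against CD4 IEL, 1 epithelial gene was higher, but 3 with the replicate block, 7 with only the groups compared and 2 by DESeq2. For CD8αα from CD8αβ against CD8αβ IEL, 2 were higher, but 1 with library totals alone, 1 with no filter, 1 with only the groups compared and 0 with the CD8αα libraries cut to those with Y-linked transcripts. The replicate block in these 6 libraries alone, chosen after seeing the data, gave 2 lower. For CD8αα from CD4 against CD8αα from CD8αβ, no gene was lower, but 1, Reg1, was with no filter, with the replicate block, with only the groups compared and by DESeq2. In the interaction 0 were higher, but 1, Zg16, was with no filter and by DESeq2. The labels tie no same-numbered libraries together, and not every CD4-derived library correlated best with its own number. With the block Reg3b was higher in CD8αα from CD4 (log2 fold change 2.64, edgeR adjusted p = 0.019). The block lost no call among the 13 genes lower in CD4 IEL and gave 14, with Cldn3 added.

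Over all genes, the Y-linked choice, with 1 library left in each CD8αα group, lowered the calls. In CD8αα from CD4 against CD4 IEL they fell from 3597 to 1280. In CD8αα from CD8αβ against CD8αβ IEL they fell from 3939 to 1421. They fell from 547 to 1 between the CD8αα groups, from 323 to 13 in the interaction and from 6587 to 3413 for any difference. CD4 IEL against CD8αβ IEL, whose libraries were all kept, is not in this list. Between the CD8αα groups, only the groups compared gave 959 and DESeq2 1036 calls. DESeq2 gave 817 in the interaction. The interaction was not run with only the groups compared, since it uses all 4.

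Leaving out 1 library at a time gave 1 to 2 epithelial genes higher in CD8αα from CD4 than in CD4 IEL. It gave 0 to 3 higher and 0 to 1 lower in CD8αα from CD8αβ against CD8αβ IEL, 0 to 1 lower between the CD8αα groups, 5 to 16 lower in CD4 IEL against CD8αβ IEL and 0 to 1 higher in the interaction. Calls over all genes ran from 166 to 714 between the CD8αα groups and from 147 to 368 in the interaction. The mean epithelial sum of CD4 IEL ran from 171 to 255 CPM and that of CD8αα from CD4 from 422 to 501 CPM. The mean of CD8αβ IEL ran from 402 to 972 CPM and that of CD8αα from CD8αβ from 355 to 813 CPM. Without the Reg genes the sum of CD8αα from CD4 was 346 CPM. The median r of pairs ran from 0.62 to 0.74 with 1 library left out, was 0.74 for genes of at least 5 CPM and 0.51 without the 2 farthest libraries. Depth limits Reg1, Zg16, Muc2 and the 8 untested genes, which rest on few reads in several groups.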
